A study of Mus musculus with 12 samples.

Results

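The nuclear genes of oxidative phosphorylation were taken as the rows of the count table whose symbol began with Nduf, Uqcr or Atp5, was Sdha, Sdhb, Sdhc or Sdhd, began with Cox followed by a digit from 4 to 8, or was Cyc1 or Cycs. This gave 88 of the 14533 genes listed. By the proteins they encode, 35 are subunits of complex I, 4 of complex II, 9 of complex III, 13 of complex IV and 15 of complex V, which makes 76 structural subunits. The other 12 are Cycs, the 7 complex I assembly factors named Ndufaf1 to Ndufaf7, Cox7a2l, Ndufa4l2, Atp5s and Atp5sl. Ndufa4 was placed in complex IV, where its protein is found, although its symbol names complex I.

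The series measured mRNA by sequencing in dorsal epidermal scrapings of 12 untreated C57BL/6 mice, to ask how loss of Pparg in the epidermis alters the skin transcriptome. All 12 mice carried floxed Pparg alleles on both chromosomes. The 6 Pparg-/-epi mice were Cre+/- for a Cre recombinase driven by the Cytokeratin14 promoter, which acts in the basal layer of the epidermis and of hair follicles, and the 6 WT mice were Cre-/-. The scrapings reached the subepidermal vascular bed, so superficial dermis, in which this Cre is not active, was part of each sample. The WT group held 3 females and 3 males and the Pparg-/-epi group 4 females and 2 males, all aged 8 to 13 weeks. Total counts ran from 10120840 to 18851255 per mouse, and 1 count was worth between 0.0520 and 0.107 CPM, the count relative to the library total after scaling by edgeR's TMM factors.

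Pparg itself did not separate the genotypes. The WT mice 1 to 6 had 59, 269, 5, 15, 58 and 13 counts on Pparg, and the Pparg-/-epi mice 7 to 12 had 100, 107, 89, 16, 32 and 25 counts (log2 fold change -0.10 ± 0.71 SE, adjusted p 0.949, edgeR). Cre excision removes exons 1 and 2 in this model and leaves a shortened transcript that still counts towards the gene, so the level of Pparg does not check the genotype labels, and no exon-level values were analysed here.

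Oxidative phosphorylation makes ATP in the inner mitochondrial membrane: complexes I and II pass electrons from NADH and succinate to coenzyme Q, complex III passes them on to cytochrome c, complex IV hands them to oxygen, and complex V uses the proton gradient built on the way to make ATP. Most subunits are encoded in the nucleus, and a few core subunits of complexes I, III, IV and V in mitochondrial DNA. In the epidermis, reactive oxygen species made by the respiratory chain take part in the differentiation of keratinocytes, and mitochondria are removed as the cells turn into corneocytes.

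Some libraries stood apart before any gene was compared. On the first dimension of a multidimensional scaling plot, the Pparg-/-epi mice lay between 0.12 and 1.97 and WT mouse 2 lay among them at 1.19, whereas the other WT mice lay between -1.99 and -0.91. WT mouse 5 carried skeletal muscle transcripts: the summed level of 19 muscle genes listed, of 24 in the marker list, was 16402 CPM in this mouse, led by Myh4, and 537, 135, 39.3, 109 and 30.3 CPM in the WT mice 1, 2, 3, 4 and 6. In the Pparg-/-epi mice 7 to 12 the same sum was 48.4, 718, 105, 27.0, 73.1 and 251 CPM. Myh2 and Actn3 were at 0 counts in WT mouse 3, and Myh2 also in WT mouse 6. Defining markers of the labelled tissue were present in every mouse: all 8 genes of the basal keratinocyte list were listed, with sums led by Krt5 from 11682 CPM in WT mouse 2 to 19968 CPM in WT mouse 5.

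Of the 88 members, 4 rose in Pparg-/-epi mice at an adjusted p under 0.05 in edgeR's quasi-likelihood test, or 4.55%, whereas 7.54% of all genes tested rose. No member fell (0 of 88), whereas 7.84% of all genes fell. The likelihood ratio test of edgeR also called 0 members lower, and DESeq2 called 1 (1.14%, against 10.2% of all genes). With each mouse left out in turn, 1 to 3 members rose and 0 to 2 fell. At an unadjusted p under 0.05 the quasi-likelihood test gave 9 members, or 10.2%, of which 7 were higher and 2, Atp5s and Ndufb11, were lower, against 29.5% of all genes. The study's rule also asks for a difference of 0.6 or beyond on the log2 scale. Applied to the quasi-likelihood test, it passed 2 members (2.27%), against 10.3% of all genes. The study itself used likelihood ratio tests, by which 2 members passed here as well. The CPM of every Pparg-/-epi mouse lay above that of every WT mouse for 2 members, Ndufa4l2 and Cox4i2, and for 3.95% of all genes, and below it for 0 members and 3.95% of all genes. The share of members called was below that of the whole table in each of these counts, while with RIN, the RNA integrity number, as a covariate 9.09% of members and 7.94% of all genes rose, and in females alone 2.27% and 2.17%. The counts given for each complex below are to be set beside the same shares of all genes.

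Among the complexes, the median log2 fold change was lowest for complex I and highest for complex IV. The median log2 fold change was -0.05 for complex I, -0.01 for complex II, 0.16 for complex III, 0.18 for complex IV and 0.11 for complex V, beside 0.06 for the 76 structural subunits and -0.01 for all genes. Positive values were found for 13 of 35 subunits of complex I, 2 of 4 of complex II, 7 of 9 of complex III, 11 of 13 of complex IV and 11 of 15 of complex V, and for 48.5% of all genes. The medians of complexes III, IV and V were above 0 in all 23 alternatives tried, and those of complexes I and II changed sign, being above 0 in 7 and 8 of them. Subunits share mice and, as described further on, shift together from mouse to mouse, so these counts were given no test. The median deviation, defined further on, compares complexes within a mouse. For complexes III and IV it was below that of complex I in every WT mouse and above it in every Pparg-/-epi mouse. For complex V it was above in every Pparg-/-epi mouse and in WT mice 2 and 3. Group means (WT, Pparg-/-epi) were 0.02 and -0.01 for complex I, -0.07 and 0.08 for III and -0.09 and 0.08 for IV. Deviations are centred on the same 12 mice, so lower values in WT mice bring higher values in Pparg-/-epi mice. Both directions are therefore a single difference between the groups, the same that the fold changes describe. They do not rank the complexes by level within a group. This order was not tested.

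**Figure D1:**
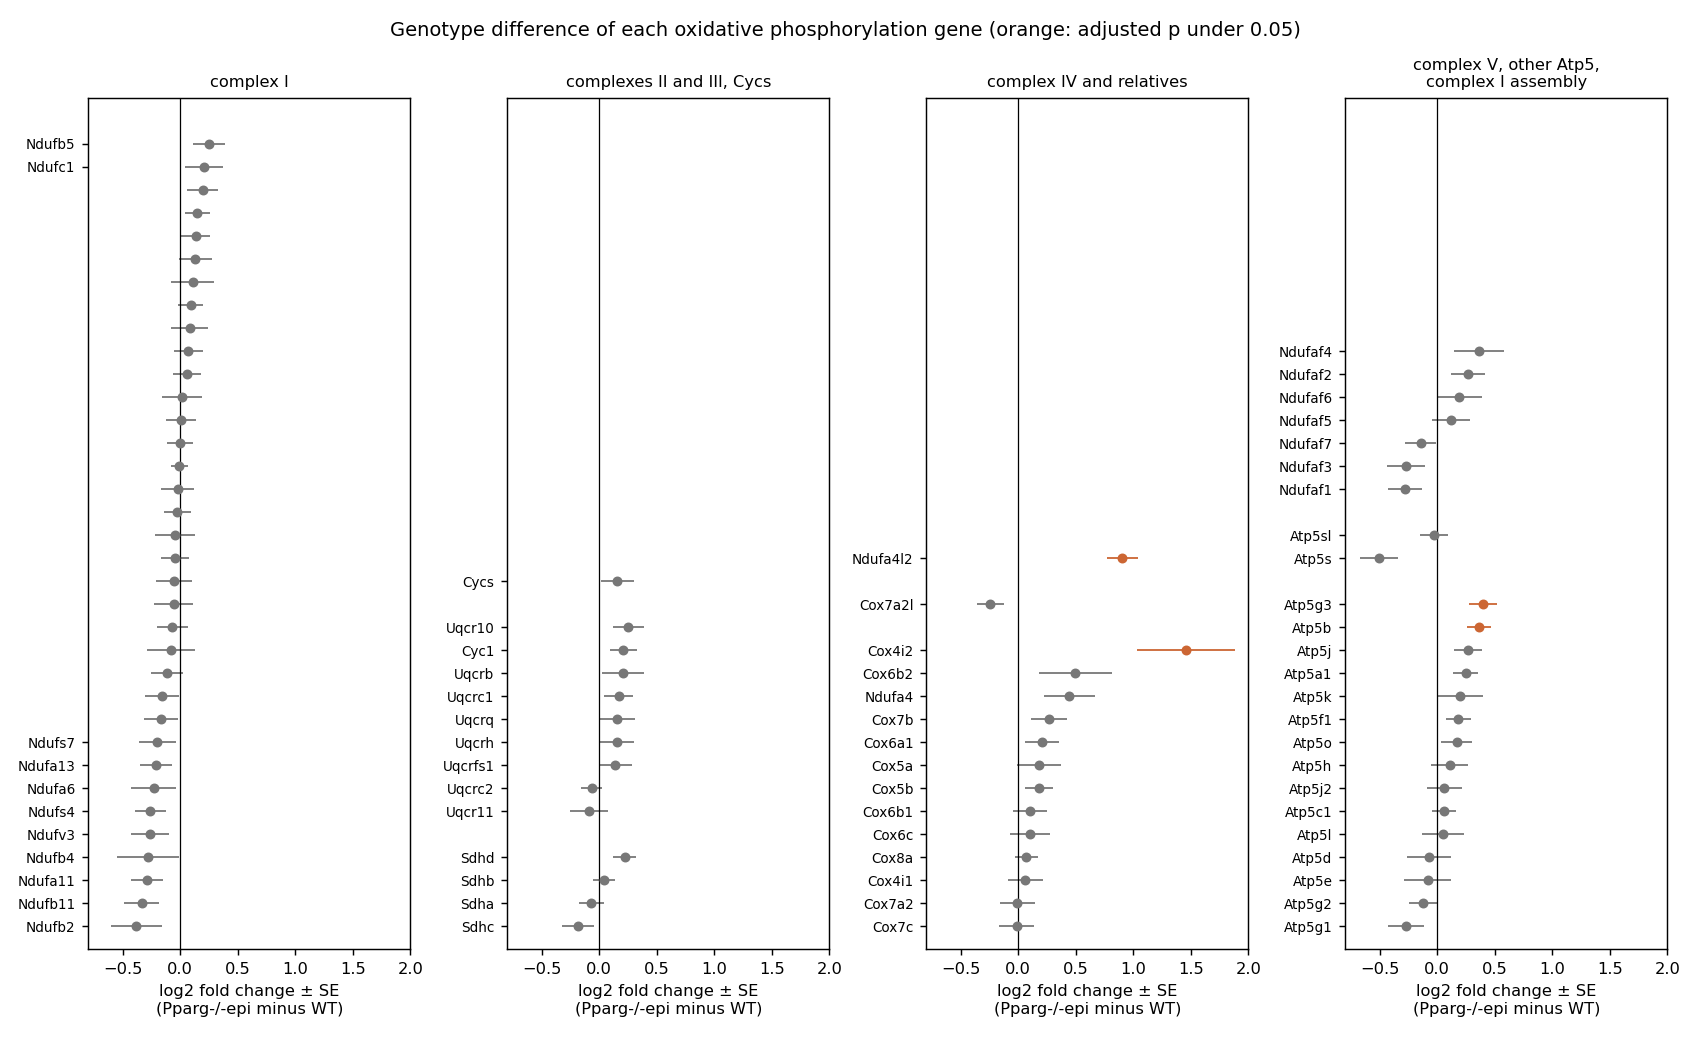
Log2 fold change (Pparg-/-epi minus WT, 6 mice each) with its standard error for each of the 88 members, grouped by complex along the vertical axis; orange points passed an adjusted p under 0.05 in edgeR, and of complex I only the outermost genes are named. Only Ndufa4l2, Cox4i2, Atp5b and Atp5g3 are orange, and the median of all 88 is 0.06.

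Levels were compared between genes as RPKM, that is CPM per kilobase of the gene length in the table. The median of the WT means was 52.8 RPKM over the subunits of complex I, 41.9 RPKM for complex II, 74.1 RPKM for complex III, 148 RPKM for complex IV and 129 RPKM for complex V, whereas it was 8.14 RPKM over all genes. The highest means were those of Uqcrh, the hinge protein of complex III, at 312 ± 62.0 RPKM (SD, n = 6), and of Atp5h, a peripheral stalk subunit of complex V, at 312 ± 71.7 RPKM (SD, n = 6). Cox6c led complex IV at 281 ± 62.9 RPKM (SD, n = 6), which did not differ from these beyond the spread between mice. Ndufa6 led complex I at 173 ± 48.7 RPKM (SD, n = 6), and Sdhc led complex II at 63.5 ± 14.7 RPKM (SD, n = 6). At the other end stood Cox4i2 at 1.21 RPKM and Cox6b2, known from testis, at 1.63 RPKM. They were below Ndufa11, the lowest subunit of complex I by RPKM, at 12.6 RPKM. That rank rests on its length in the table, 2661 bases. By WT mean CPM, Ndufa11 at 33.6 CPM was above other subunits of complex I such as Ndufab1 at 14.0 CPM. The members Cox6a2, Cox7a1, Cox7b2 and Cox8b, which the symbol rule would take, were not listed and were not analysed here.

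**Figure D2:**
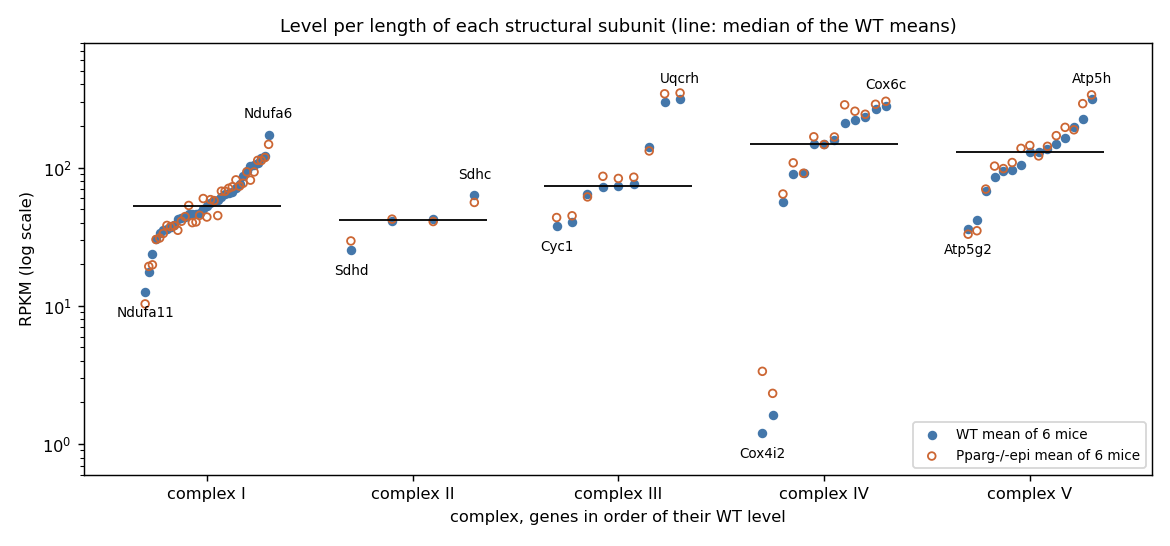
Mean RPKM (log scale) of each structural subunit in 6 WT mice (filled) and 6 Pparg-/-epi mice (open), in order of the WT level within each complex; lines mark the median of the WT means. The lines of complexes IV and V, at 148 and 129 RPKM, lie above those of complexes I to III, and Cox4i2 and Cox6b2 lie far below the rest.

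Complex I oxidises NADH, and none of its 35 subunits passed the test in edgeR (0 of 35) by the quasi-likelihood test, by the likelihood ratio test or in DESeq2, with 1 at an unadjusted p under 0.05. Its extremes were Ndufb2, a small accessory subunit with a log2 fold change of -0.38 ± 0.22 (SE, adjusted p 0.275, edgeR), and Ndufb5, another accessory subunit at 0.25 ± 0.14 (SE, adjusted p 0.244, edgeR). For Ndufb2, WT mice had 17.7, 25.2 and 43.8 CPM as lowest, median and highest and Pparg-/-epi mice 14.3, 21.8 and 24.7 CPM. WT mouse 3 gave the highest value and WT mouse 2 the lowest of the WT mice, and no Pparg-/-epi mouse (0 of 6) was above the WT median. The most abundant subunit by RPKM, Ndufa6, ran from 67.9 to 138 CPM in WT mice and from 57.4 to 104 CPM in Pparg-/-epi mice, and the ranges overlapped over most of their width. Without WT mouse 2, the accessory subunit Ndufv3 fell as well (log2 fold change -0.40, adjusted p 0.0283), whereas with all mice its log2 fold change was -0.27 (adjusted p 0.317); its adjusted p over the alternatives ran from 0.0283 to 0.932.

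The 7 assembly factors Ndufaf1 to Ndufaf7, which build complex I and are not part of it, were of low level, with a median of 6.25 RPKM in WT mice. Their log2 fold changes ran from -0.28 for Ndufaf1 to 0.36 for Ndufaf4, 4 being positive, and 0 of 7 passed the test in edgeR, by the likelihood ratio test or in DESeq2, nor did any (0 of 7) have an unadjusted p under 0.05.

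Complex II is both an enzyme of the tricarboxylic acid cycle and an entry point for electrons, and its 4 subunits are all encoded in the nucleus. The flavoprotein gene Sdha had 107, 118 and 155 CPM as lowest, median and highest in WT mice and 97.7, 117 and 134 CPM in Pparg-/-epi mice. The iron-sulfur subunit Sdhb had 40.1, 42.3 and 52.8 CPM in WT mice and 41.3, 43.8 and 54.8 CPM in Pparg-/-epi mice. WT mouse 5, the mouse with muscle transcripts, was the highest WT mouse for both, and the groups overlapped for both. The membrane anchors Sdhc and Sdhd had log2 fold changes of -0.18 ± 0.14 and 0.22 ± 0.10 (SE, adjusted p 0.421 and 0.155, edgeR). For Sdhd, 4 of 6 Pparg-/-epi mice were above the highest WT mouse, at 36.4 CPM, while Pparg-/-epi mice 10 and 12, both male, were not. The result for complex II was 0 of 4 called in edgeR, by the likelihood ratio test and in DESeq2, with 1 at an unadjusted p under 0.05. Over all genes, 15.4%, 15.9% and 20.4% were called by these tests and 29.5% had such a p. A count from 4 genes says little beside these shares.

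Complex III was represented by the core subunits Uqcrc1 and Uqcrc2, the Rieske iron-sulfur protein Uqcrfs1, cytochrome c1 (Cyc1) and 5 smaller subunits. Log2 fold changes lay in a narrow band from -0.08 for Uqcr11 to 0.25 for Uqcr10, and 0 of 9 passed the test in edgeR, by the likelihood ratio test or in DESeq2, with 0 at an unadjusted p under 0.05. Cyc1, which carries the heme that reduces cytochrome c, had 36.3, 43.5 and 56.7 CPM as lowest, median and highest in WT mice and 46.3, 52.3 and 56.2 CPM in Pparg-/-epi mice (log2 fold change 0.21 ± 0.12 SE, adjusted p 0.270, edgeR). All 6 Pparg-/-epi mice were above the WT median for Cyc1 and 4 WT mice were below the lowest of them, but WT mouse 5 had the highest value of all 12 mice. Cycs, the soluble cytochrome c itself, had 26.8, 32.7 and 50.9 CPM in WT mice and 32.2, 40.4 and 43.4 CPM in Pparg-/-epi mice (log2 fold change 0.16 ± 0.14 SE, adjusted p 0.509, edgeR). WT mouse 5 was again the highest of all 12 mice, and 23.9% of the stretches of 75 bases in Cycs transcripts were also found in transcripts of another gene.

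**Figure D3:**
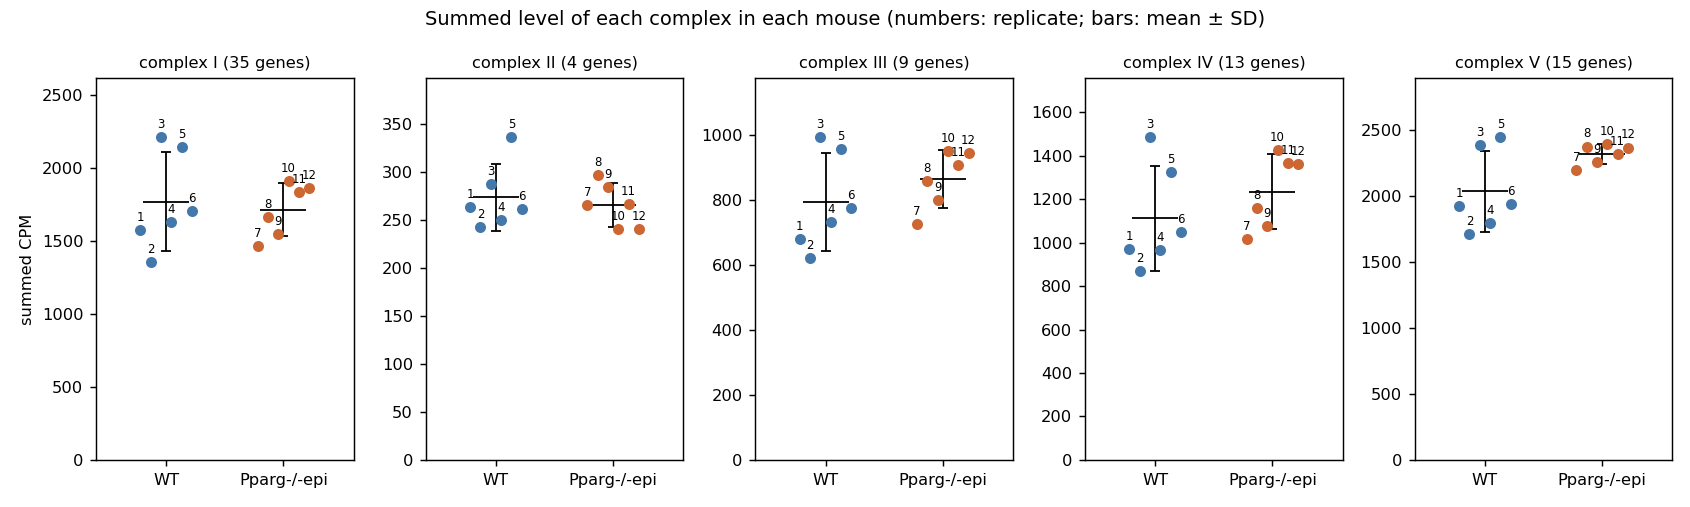
Summed CPM of the subunits of each complex in each mouse, with mean and SD of each group of 6; numbers are the mice. For complex V the 6 Pparg-/-epi mice lie between 2199 and 2398 CPM, above WT mice 1, 2, 4 and 6, with WT mouse 3 among them and WT mouse 5 above them at 2452 CPM; for the other complexes the groups overlap over most of their range.

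Complex IV, the cytochrome c oxidase, had 1 subunit of 13 that rose, Cox4i2, the alternative form of subunit 4, which is induced by low oxygen and known from lung and from the walls of small vessels. WT mice had 0.252, 0.833 and 1.54 CPM of Cox4i2 as lowest, median and highest (4 to 29 counts), and Pparg-/-epi mice 1.72, 2.24 and 4.06 CPM (23 to 67 counts). Every Pparg-/-epi mouse was above every WT mouse, with WT mice 1 and 2 closest to them and Pparg-/-epi mouse 8 far above the rest. The log2 fold change was 1.46 ± 0.43 (SE, adjusted p 0.0368, edgeR). The gene passed the table's filter of more than 0.5 CPM in 6 mice through 6 Pparg-/-epi mice and 4 WT mice. With mice left out in turn, it had an adjusted p under 0.05 without WT mouse 1 (0.0297), WT mouse 2 (0.0161) or Pparg-/-epi mouse 10 (0.0469). Without any of the other 9 mice the adjusted p lay between 0.0536 (Pparg-/-epi mouse 11) and 0.0907 (Pparg-/-epi mouse 8). Cox4i2 also missed 0.05 in females alone, with mouse-name prefixes as blocks and with only the WT mice outside prefix 29-226. Over the 22 alternatives that tested it, the adjusted p ran from 0.0101 to 0.352 and the log2 fold change from 0.71 to 1.83. Among genes with a mean of at least 50 counts it was not included.

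Since Cox4i2 is known from vessel walls, endothelial markers were read beside it. All 8 genes of the endothelial list were listed and had counts in every mouse, with Pecam1 the most abundant, and their summed level was 91.5, 151, 13.1, 21.2, 45.3 and 10.5 CPM in the WT mice 1 to 6 and 185, 230, 191, 42, 91.9 and 53.9 CPM in the Pparg-/-epi mice 7 to 12. WT mice 1 and 2 and Pparg-/-epi mouse 8 were the highest of their groups for both Cox4i2 and this list, whereas Pparg-/-epi mouse 7, the lowest of its group for Cox4i2, was high for the list, and Pparg-/-epi mice 10 and 12 were below WT mice 1 and 2 for the list and above them for Cox4i2. Of the 8 markers, 1 rose (Emcn, adjusted p 0.0340, edgeR), and the median log2 fold change was 1.14, while the melanocyte and hair follicle lists had medians of 1.46 and 0.99. Pparg-/-epi mouse 8 was the highest of its group for 8 of the 11 marker lists: endothelial, melanocyte, hair follicle, muscle, adipocyte, fibroblast, immune and red blood cell. The endothelial list does not cover the other cells of vessel walls, for which no list was read. The part of vessel content in the Cox4i2 result was not tested. In such bulk samples, more cells of a type and more RNA per cell cannot be told apart, and the same holds for fewer cells and less RNA.

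The ubiquitous partner Cox4i1 had 133, 160 and 240 CPM as lowest, median and highest in WT mice and 161, 185 and 208 CPM in Pparg-/-epi mice, at a log2 fold change of 0.06 ± 0.15 (SE, adjusted p 0.834, edgeR). WT mice 3 and 5 were the highest of all 12 mice, so the groups overlapped. By length, Cox4i1 was at 233 RPKM in WT mice against 1.21 RPKM for Cox4i2, and at 243 RPKM against 3.36 RPKM in Pparg-/-epi mice, so Cox4i2 transcripts stayed a small share of subunit 4 transcripts. Among the other paired forms, Cox6b1 and Cox6b2 had log2 fold changes of 0.10 and 0.50 (adjusted p 0.690 and 0.332, edgeR), Cox6b2 at 6 to 30 counts per mouse. Cox6a1, Cox7a2, Cox7b and Cox8a had log2 fold changes of 0.21, -0.01, 0.27 and 0.07, with adjusted p from 0.281 to 0.984 in edgeR. Cox7c had the lowest log2 fold change of the complex at -0.01, and Cox6c, the most abundant by RPKM, stood at 0.10.

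Ndufa4l2 gave the smallest p of all members. It encodes a paralog of Ndufa4 that is induced by low oxygen through HIF-1 and lowers the activity of complex I. WT mice had 124, 151 and 179 CPM as lowest, median and highest, and Pparg-/-epi mice 206, 280 and 364 CPM. No value of the WT mice reached the lowest Pparg-/-epi mouse, which was mouse 8, and Pparg-/-epi mouse 11 was the highest. The log2 fold change was 0.91 ± 0.14 (SE, adjusted p 0.00116, edgeR), or 1.87-fold, with 6 of 6 Pparg-/-epi mice above the highest WT mouse. It passed the test without each of the 12 mice in turn (adjusted p from 0.00101 to 0.00427) and in 21 of 23 alternatives (adjusted p from 1.75e-08 to 0.0802). The exceptions were the fit of females only (log2 fold change 0.92, adjusted p 0.0550) and the fit that kept only the WT mice outside name prefix 29-226 (0.84, adjusted p 0.0802), which left fewer mice. None of its 75-base stretches (0%) occurred in transcripts of another gene.

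The gene lies on chromosome 10 (127514939 to 127517156, mm10) and its exons overlap those of Shmt2 on the opposite strand. Whether reads were counted by strand is not given in the sources used here, so reads in the overlap cannot be told apart. Shmt2, which encodes the mitochondrial serine hydroxymethyltransferase, had 43.9 to 64.1 CPM in WT mice and 56.0 to 80.7 CPM in Pparg-/-epi mice (log2 fold change 0.30 ± 0.11 SE, adjusted p 0.0865, edgeR). The ranges of Shmt2 overlapped between the groups.

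Ndufa4, the subunit of complex IV from which the paralog takes its name, had 73.5, 93.5 and 149 CPM as lowest, median and highest in WT mice and 88.3, 139 and 204 CPM in Pparg-/-epi mice. Pparg-/-epi mice 10, 11 and 12 were above every WT mouse, whereas mice 7, 8 and 9 lay within the WT range. The log2 fold change was 0.45 ± 0.22 and did not pass the test (SE, adjusted p 0.210, edgeR), but did with RIN added to the model (0.64, adjusted p 0.0415) and with mouse-name prefixes as blocks (0.61, adjusted p 0.0390). Its adjusted p over the alternatives ran from 0.0390 to 0.381. Per length, Ndufa4l2 and Ndufa4 were at 158 ± 21.3 and 209 ± 57.4 RPKM in WT mice and at 296 ± 56.7 and 284 ± 91.3 RPKM in Pparg-/-epi mice (SD, n = 6), so their order within a group was not resolved beyond the spread between mice.

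**Figure D4:**
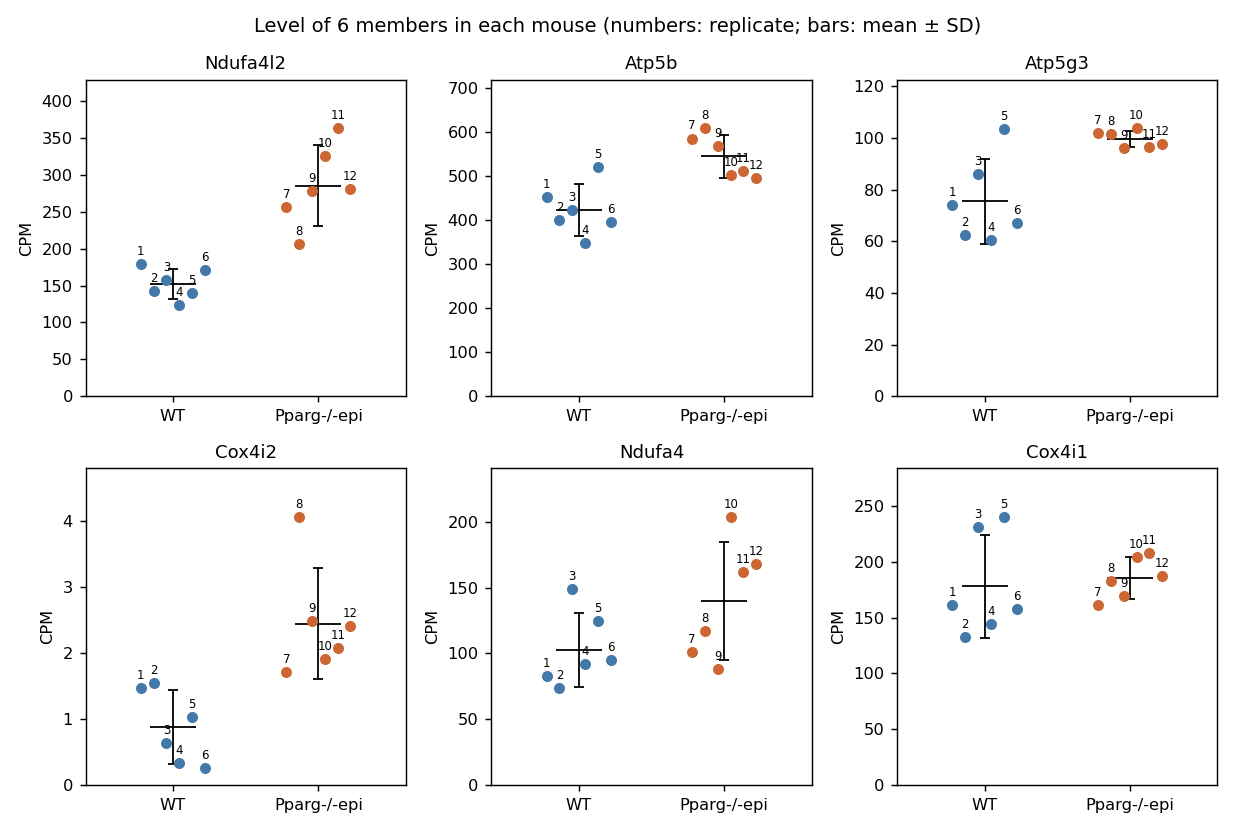
CPM of the 4 members that rose, and of Ndufa4 and Cox4i1, in each of 6 WT and 6 Pparg-/-epi mice, with mean and SD; numbers are the mice. The groups do not overlap for Ndufa4l2 and Cox4i2; for Atp5b and Atp5g3 WT mouse 5 reaches the Pparg-/-epi mice.

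Complex V, the ATP synthase, held the other members that rose, Atp5b and Atp5g3. Atp5b encodes the beta subunit, which carries the catalytic sites. WT mice had 349, 411 and 520 CPM of Atp5b as lowest, median and highest, and Pparg-/-epi mice 495, 540 and 609 CPM. WT mouse 5 lay within the range of the Pparg-/-epi mice, and the other 5 WT mice were below the lowest of them. The log2 fold change was 0.37 ± 0.11 (SE, adjusted p 0.0353, edgeR), or 1.29-fold. The adjusted p was no longer under 0.05 without WT mouse 3 (0.0602), 4 (0.0780) or 6 (0.0788). The same held without Pparg-/-epi mouse 7 (0.0941), 8 (0.0907) or 9 (0.0918) and with RIN as a covariate (0.0523). It also held with mouse-name prefixes as blocks and with only the WT mice outside prefix 29-226. Over all alternatives the adjusted p ran from 0.00488 to 0.210.

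Atp5g3 is among the 3 genes for subunit c, which forms the rotating ring in the membrane; Atp5g1, Atp5g2 and Atp5g3 encode the same mature protein behind different import sequences. WT mice had 60.4, 70.5 and 103 CPM of Atp5g3 as lowest, median and highest, and Pparg-/-epi mice 96.2, 99.7 and 104 CPM. The Pparg-/-epi mice lay close together, above the WT mice apart from mouse 5, which at 103 CPM was level with them. The log2 fold change was 0.40 ± 0.12 (SE, adjusted p 0.0427, edgeR), or 1.32-fold. It passed without WT mouse 3 (adjusted p 0.0431) or WT mouse 5 (0.00557) and missed 0.05 without any of the other 10 mice in turn, with adjusted p from 0.0627 to 0.0911. It also missed it with age as a covariate (0.0544) and with mouse-name prefixes as blocks. Over all alternatives the adjusted p ran from 0.00557 to 0.0911.

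The other genes for subunit c did not rise. Atp5g1 had a log2 fold change of -0.27 ± 0.16 and Atp5g2 one of -0.12 ± 0.12 (SE, adjusted p 0.279 and 0.551, edgeR), and 35.8% of the 75-base stretches of Atp5g2 were shared with another gene. By length, WT mice had 104 ± 22.8 RPKM of Atp5g3, 42.1 ± 10.6 RPKM of Atp5g1 and 35.9 ± 6.12 RPKM of Atp5g2, and Pparg-/-epi mice 138 ± 4.44, 34.9 ± 3.86 and 33.0 ± 3.32 RPKM (SD, n = 6). Atp5g3 was the most abundant of the 3 in both groups, and Atp5g1 and Atp5g2 did not differ beyond their spread. These levels were not corrected for reads lost from shared stretches.

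Of the remaining 13 subunits of complex V, 0 passed the test in edgeR, by the likelihood ratio test or in DESeq2, with 2 at an unadjusted p under 0.05, Atp5a1 and Atp5j. Atp5a1, the alpha subunit that pairs with beta in the catalytic head, had 356, 383 and 499 CPM as lowest, median and highest in WT mice and 414, 477 and 533 CPM in Pparg-/-epi mice (log2 fold change 0.25 ± 0.11 SE, adjusted p 0.142, edgeR). All 6 Pparg-/-epi mice were above the WT median, 5 WT mice were below the lowest of them, and WT mouse 5 was not. Atp5j, the coupling factor of the peripheral stalk, had a log2 fold change of 0.27 ± 0.12 (SE, adjusted p 0.158, edgeR), which passed with sex as a covariate (0.32, adjusted p 0.0348) and with RIN as a covariate (0.36, adjusted p 0.0495); over the alternatives its adjusted p ran from 0.0348 to 0.278. Atp5h, the most abundant by RPKM, stood at 0.11 ± 0.16 (SE, adjusted p 0.716, edgeR). Summed over the 15 subunits, WT mice had 1714, 1934 and 2452 CPM as lowest, median and highest and Pparg-/-epi mice 2199, 2344 and 2398 CPM, the mean being 13.9% higher. By the same sum the mean was higher by 8.97% for complex III and 11.1% for complex IV, and differed by -3.07% for complex I and -2.86% for complex II.

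Since Atp5b and Atp5g3 were the structural subunits of ordinary level that rose, the windows around their start sites are shown, from 250 bases before to 50 bases after, from RefSeq (GRCm38.p6). They lie at chr10:128083057-128083356 on the plus strand and chr2:73911277-73911576 on the minus strand. Capitals mark the only exact match to a searched motif, TGACCTTGA, the reverse complement of the ERR motif TCAAGGTCA, which starts 52 bases before the start site of Atp5g3.
Atp5b promoter: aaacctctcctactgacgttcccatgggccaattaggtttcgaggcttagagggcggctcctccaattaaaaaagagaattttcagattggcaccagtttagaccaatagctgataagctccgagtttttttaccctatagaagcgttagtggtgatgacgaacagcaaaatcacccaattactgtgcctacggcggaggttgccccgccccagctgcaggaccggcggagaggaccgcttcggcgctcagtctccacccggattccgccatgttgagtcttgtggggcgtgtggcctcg
Atp5g3 promoter: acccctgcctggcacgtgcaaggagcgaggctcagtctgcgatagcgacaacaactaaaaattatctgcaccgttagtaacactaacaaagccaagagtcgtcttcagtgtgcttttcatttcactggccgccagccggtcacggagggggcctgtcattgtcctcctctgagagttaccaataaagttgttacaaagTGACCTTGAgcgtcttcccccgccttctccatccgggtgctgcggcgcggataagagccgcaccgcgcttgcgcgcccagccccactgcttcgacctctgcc

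Of the members, 73 were matched to 79 promoter windows, and 6 motifs taken from general knowledge of mitochondrial gene promoters were searched on both strands. The NRF1 motif GCGCATGCG was found in 11 of 73 members (15.1%) and in 1.75% of all 32851 windows. The YY1 motif AAGATGGC was found in 11 members (15.1%) and in 2.75% of all windows, and the ETS motif CCGGAAGT in 5 members (6.85%) and 3.89%. Members with the NRF1 motif included Cycs, Cox6a1, Uqcrc1, Atp5g2 and Ndufa8, and those with the YY1 motif Atp5j, Atp5f1, Ndufs4 and Ndufb8. The CRE motif TGACGTCA was found in 5 members (6.85%) and in 1.79% of all windows. The ERR motif was found in 2 members (2.74%), Atp5g3 and Sdhd, and in 0.423% of all windows, and it shares its last 6 bases with the repeated unit of the direct repeat AGGTCANAGGTCA, which PPAR receptors bind with RXR and which was found in 0 members and in 0.0396% of all windows. Atp5b held none of the 6 motifs (0 of 6). Ndufa4l2 and Cox4i2 had no window to search. A match describes the letters of a window and is not a bound site.

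Outside the complexes, Atp5s and Atp5sl carry Atp5 symbols although their proteins are not part of the ATP synthase core. Atp5s had 10.0, 13.4 and 16.7 CPM as lowest, median and highest in WT mice and 6.84, 9.30 and 11.2 CPM in Pparg-/-epi mice. All 6 Pparg-/-epi mice were below the WT median, and the ranges overlapped between 10.0 and 11.2 CPM. The log2 fold change of -0.51 ± 0.17 missed the threshold in edgeR (SE, adjusted p 0.0559). It passed in DESeq2 (adjusted p 0.0252), among genes with a mean of at least 50 counts (0.0451), and without WT mouse 1 (0.0320), WT mouse 2 (0.0322) or Pparg-/-epi mouse 10 (0.0489), within a range of 0.0252 to 0.732 over the alternatives. Atp5sl stood at -0.03 ± 0.12 (SE, adjusted p 0.906, edgeR). Cox7a2l, which joins complexes III and IV into supercomplexes, had 176, 207 and 271 CPM in WT mice and 151, 178 and 202 CPM in Pparg-/-epi mice, 0 of 6 Pparg-/-epi mice being above the WT median (log2 fold change -0.24 ± 0.12 SE, adjusted p 0.189, edgeR).

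The members varied more between mice than between genotypes. For each mouse, the deviation of a gene was its log2(CPM + 0.5) minus the mean of that value over the 12 mice, and the median was taken over the 76 structural subunits. This median was -0.15, -0.35, 0.35, -0.18, 0.26 and -0.07 in the WT mice 1 to 6 and -0.19, 0.01, -0.10, 0.18, 0.15 and 0.16 in the Pparg-/-epi mice 7 to 12. WT mouse 3 and WT mouse 5 were thus highest and WT mouse 2 lowest, with 74 of 76 subunits above their mean in WT mouse 5, 68 in WT mouse 3 and 3 in WT mouse 2. The summed level of the structural subunits ran from 4800 CPM in WT mouse 2 to 7375 CPM in WT mouse 3, and from 5678 to 6931 CPM in Pparg-/-epi mice. The 88 members together took between 0.580% and 0.753% of the counts of a mouse.

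The shifts were read beside transcript length and RNA quality. Subunit transcripts are short, with a median of 726 bases against 2878 bases over all genes. Over the 432 genes under 700 bases that are not members, the median deviation was -0.20, -0.33, 0.40, 0.01, 0.06 and -0.02 in the WT mice 1 to 6 and -0.26, -0.11, -0.19, 0.26, 0.20 and 0.23 in the Pparg-/-epi mice 7 to 12. These values were near those of the subunits in most mice, and farthest from them in WT mouse 5, whose subunits were at 0.26, and in WT mouse 4, whose subunits were at -0.18. The mouse medians of the 37 subunits under 700 bases spanned 0.81, and those of the 14 subunits of 1500 bases or more spanned 0.53, with WT mouse 5 highest among the longer ones. RIN was 8.6 in both WT mouse 2 and Pparg-/-epi mouse 7, which were lowest, and 6.1 in WT mouse 3, but WT mouse 6 at a RIN of 6.2 was slightly below 0 and Pparg-/-epi mouse 10 at 7.7 was above it. The part of length and RNA quality in the genotype values was not tested beyond the fit with RIN as a covariate, in which 8 members (9.09%) rose, namely Ndufa4l2, Cox4i2, Atp5g3, Atp5j, Cox5b, Ndufa4, Ndufb5 and Ndufc1, against 7.94% of all genes. In that fit the medians were 0.11 for complex I, 0.01 for complex II, 0.28 for complex III, 0.31 for complex IV and 0.23 for complex V.

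**Figure D5:**
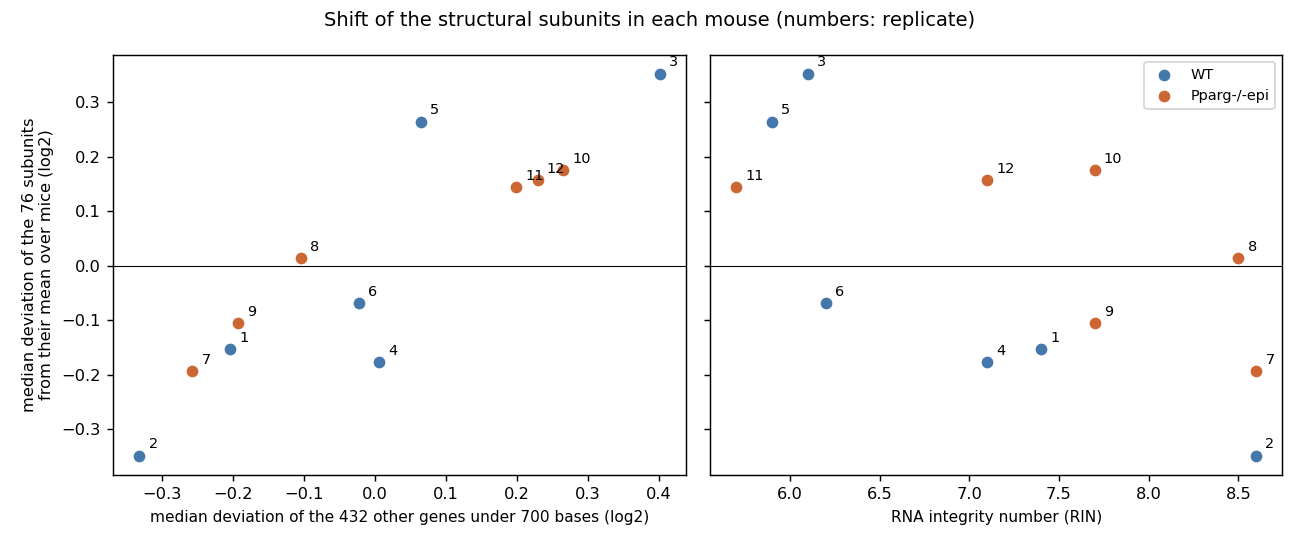
Median deviation (log2) of the 76 structural subunits in each mouse, against the median deviation of the 432 other genes under 700 bases (left) and against RIN (right); blue points are WT and orange points Pparg-/-epi mice, numbered. The points rise along the left panel from WT mouse 2 (-0.35) to WT mouse 3 (0.35), and both genotypes are spread along it.

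WT mouse 5 had the highest WT level of Sdha, Sdhb, Cyc1, Cycs, Atp5a1, Atp5b and Atp5g3, together with the muscle transcripts. Without this mouse the median log2 fold change was 0.10 for the structural subunits, 0.06 for complex II and 0.14 for complex V, and the log2 fold changes of Atp5b and Atp5g3 were 0.43 and 0.51 (adjusted p 0.0171 and 0.00557, edgeR). Without WT mouse 2 the median of the structural subunits was 0.00 and that of complex I -0.11, and Atp5b had an adjusted p of 0.0487. Without both, 4 members (4.55%) rose and 2 (2.27%), Atp5s and Ndufv3, fell, against 9.07% and 9.53% of all genes.

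The genotype difference was also compared between the sexes through the interaction term over all 14533 genes. At an adjusted p under 0.05, 0 members and 0% of all genes passed in edgeR, the only tool run for this term, whereas at an unadjusted p under 0.05 there were 9 members (10.2%) and 741 genes (5.10%). In 8 of these 9 members the log2 ratio was lower in males, the exception being Ndufaf4. For Atp5b females had a mean of 381 CPM (WT) and 568 CPM (Pparg-/-epi), and males 465 CPM (WT) and 498 CPM (Pparg-/-epi) (interaction -0.48 ± 0.18 SE, adjusted p 0.895, edgeR). WT mice 3 and 5, the highest for the structural subunits, are both male. In females alone 2 members rose, Atp5b and Atp5g3.

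The mouse names carry prefixes, and these were not balanced: prefix 29-226 held 4 WT mice and 0 Pparg-/-epi mice, so prefix and genotype cannot be told apart there. Prefix 29-222 held WT mouse 2, a female, and Pparg-/-epi mouse 10, a male. Between them, Ndufa4l2 was at 143 and 326 CPM, Atp5b at 399 and 502 CPM, Atp5g3 at 62.3 and 104 CPM and Cox4i2 at 1.54 and 1.91 CPM. The structural subunits as a whole were also higher in this Pparg-/-epi mouse, at 6931 against 4800 CPM, so the pair tests nothing about genotype for these 4 members. With prefixes below and above 29-220 as 2 blocks, Ndufa4l2 kept its call (log2 fold change 0.94, adjusted p 0.00164), Ndufa4 and Ndufaf4 gained it, and Atp5b, Atp5g3 and Cox4i2 lost it (0.0814, 0.0707 and 0.0735). The lower block held only WT mouse 1 beside Pparg-/-epi mice 7 to 9. Over all alternatives that tested them, the log2 fold change ran from 0.30 to 0.57 for Atp5b, 0.34 to 0.64 for Atp5g3 and 0.71 to 1.83 for Cox4i2. With only WT mice 1 and 2, those outside prefix 29-226, against all Pparg-/-epi mice, 1 member rose, Atp5g3 (0.56, adjusted p 0.0276), and 407 genes of the table passed in place of 2236.

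Of the 88 members, 40 shared some 75-base stretches of their annotated transcripts with another gene and 17 more than 10% of them, so that reads from these stretches could not be assigned to a gene by their sequence alone. The study's methods state that reads mapping to several positions were left out. Levels of such members could therefore be too low when compared with other genes, and no correction was made. The shares were highest for Ndufaf2 (63.2%), Atp5g2 (35.8%) and Atp5o (33.6%). Besides Ndufa4l2, exons of 5 members overlapped another listed gene on the opposite strand, Atp5f1 with Wdr77, Atp5j with Gabpa, Ndufa2 with Tmco6, Ndufb11 with Rbm10 and Ndufs1 with Ino80dos. For the members that rose, the share was 0.346% for Atp5b and 0% for Ndufa4l2, Cox4i2 and Atp5g3.

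Genes that serve the same pathway were read from lists, of which each median is to be set beside that of all genes, -0.01, and each count beside the 7.54% of all genes that rose and the 7.84% that fell. Counts are by edgeR's quasi-likelihood test unless another is named. DESeq2, which called 20.4% of all genes, called 3 assembly factors, 3 ribosomal protein genes and 3 genes of the tricarboxylic acid cycle. It also called 3 genes of coenzyme Q synthesis and 5 regulators. Of 39 assembly factors outside the symbol rule, 1 passed the test in edgeR, Cox17, the copper carrier to complex IV, which fell (log2 fold change -0.81 ± 0.23 SE, adjusted p 0.0337), and the median was -0.12. The most abundant of them by RPKM was Uqcc2, which helps to make cytochrome b of complex III. Uqcc2 (0.51 ± 0.17 SE, adjusted p 0.0624, edgeR) and Bcs1l (-0.45 ± 0.14 SE, adjusted p 0.0534, edgeR) missed the threshold. Both passed in DESeq2 (adjusted p 0.0301 and 0.0261). Of 3 further subunits and regulators of complex V, 1 passed, 2010107E04Rik, a small subunit of the synthase, which rose (0.56 ± 0.15 SE, adjusted p 0.0267), with a median of 0.19 and Usmg5 as the most abundant. Of 9 genes for carriers, channels and kinases of energy exchange across the mitochondrial membranes, 2 passed, and both rose: the ADP/ATP carrier Slc25a5 (0.47 ± 0.10 SE, adjusted p 0.00709) and the mitochondrial creatine kinase Ckmt1 (0.43 ± 0.14 SE, adjusted p 0.0478). Slc25a5 had 177 to 253 CPM in WT mice and 259 to 315 CPM in Pparg-/-epi mice, with no overlap. The median of these carriers was 0.09, and Ucp2 was the most abundant. Ucp2 had a log2 fold change of 0.58 ± 0.20 (SE) and missed the threshold in edgeR's quasi-likelihood test (adjusted p 0.0640). It passed by the likelihood ratio test (adjusted p 0.0378) and in DESeq2 (adjusted p 0.0228), each of which called 3 of the 9. Of 77 mitochondrial ribosomal protein genes, which translate the subunits encoded in mitochondrial DNA, 1 passed, Mrps27, which rose (0.53, adjusted p 0.00703), with a median of -0.02 and Mrpl24 as the most abundant.

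Upstream of the chain, 2 of 19 genes of the tricarboxylic acid cycle passed and fell, Sucla2 (-0.44, adjusted p 0.0186) and Idh2 (-0.29, adjusted p 0.0471), which missed the threshold by the likelihood ratio test (0.0890), while the median was 0.02 and Cs, the citrate synthase, was the most abundant by RPKM. Of 17 genes of mitochondrial beta-oxidation, which feeds electrons from fatty acids into the chain, 1 passed and fell, Eci1 (-0.70, adjusted p 0.0116), with a median of -0.05 and Hadh as the most abundant. Of 13 genes of coenzyme Q synthesis 2 passed and fell, Coq2, also the most abundant (-0.55 ± 0.14 SE, adjusted p 0.0229), and Adck3 (-0.79 ± 0.23 SE, adjusted p 0.0335). These genes make the electron carrier between complexes I and III, their median log2 fold change was -0.26, and 5 of 13 had an unadjusted p under 0.05, against 29.5% of all genes. Summed, they had 234 to 332 CPM in WT mice and 198 to 276 CPM in Pparg-/-epi mice. Pparg-/-epi mouse 12 was the highest of its group and the only one above the WT median.

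Among 18 regulators of mitochondrial gene expression 4 passed, with a median of 0.09 and Yy1 as the most abundant by RPKM. The coactivators Ppargc1b (0.82 ± 0.16 SE, adjusted p 0.00456) and Pprc1 (0.55 ± 0.14 SE, adjusted p 0.0160) and the receptor Ppard (0.59 ± 0.11 SE, adjusted p 0.00370) rose, and the receptor Ppara fell (-1.31 ± 0.14 SE, adjusted p 0.000167). Ppargc1b had 5.50 to 8.23 CPM in WT mice and 9.36 to 14.2 CPM in Pparg-/-epi mice, and Ppara 28.3 to 41.6 CPM in WT mice and 10.4 to 16.2 CPM in Pparg-/-epi mice, so the groups did not overlap for either. Ppargc1a (-0.20, adjusted p 0.696), Esrra (0.20, adjusted p 0.220), Nrf1 (0.29, adjusted p 0.0506) and Tfam (adjusted p 0.992) did not pass in edgeR. Mitochondrially encoded subunits were not among the genes listed and were not analysed here, so the nuclear genes could not be set beside them.

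Markers of other cell types were read in the same way, since the mix of cells in a scraping differs from mouse to mouse. In edgeR 0 genes passed in the lists for skeletal muscle (of 19), adipocytes (of 11), fibroblasts (of 8), melanocytes (of 5), red blood cells (of 1, Alas2) and the hair follicle (of 14), with 12, 2, 0, 0, 0 and 0 at an unadjusted p under 0.05. The likelihood ratio test called 7 muscle genes and 0 in the other lists. DESeq2 called 1 adipocyte gene and 0 in the lists for fibroblasts, melanocytes, red blood cells and the hair follicle, and gave no adjusted p for 18 of the 19 muscle genes. Of 13 sebocyte genes 8 passed, of which 7 fell and 1 rose, with a median of -2.06, although their sum ran from 1490 to 4929 CPM in WT mice and from 2756 to 4244 CPM in Pparg-/-epi mice. The gene that rose, Krt79, had a mean of 410 CPM in the WT group and of 2669 CPM in the Pparg-/-epi group. In the lists for basal keratinocytes (of 8), suprabasal keratinocytes (of 8) and immune cells (of 10), 2, 3 and 2 genes passed. The part of these cell types in the values of the oxidative phosphorylation genes was not tested.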

How the data were processed

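The counts per gene were deposited by the authors for epidermal scrapings of 6 WT and 6 Pparg-/-epi mice; according to the processing notes of the submitters, reads were aligned to mm10 with STAR 2.5.2b and counted with featureCounts of Subread 1.5.1. The table lists 14533 genes with over 0.5 CPM in at least 6 mice, and 2800 blank rows in it were left out. Mice 11 and 12 were matched to their columns through the library numbers of the run sheet. The genotypes were compared over all genes with the quasi-likelihood test of edgeR 4.0.16 (limma 3.58.1, R 4.3.3) after TMM scaling, with Benjamini-Hochberg adjustment over all genes, and the sex interaction in the same way; standard errors are the log2 fold change divided by the square root of F. The code was checked on simulated data. The alternatives, 20 planned and 3 added after seeing the data, included DESeq2 1.42.0, the likelihood ratio test, covariates and leaving out each mouse. CPM used TMM-scaled totals, RPKM divided CPM by the gene length in the table, and deviations used log2(CPM + 0.5). Promoters came from RefSeq (GRCm38.p6), and shared stretches of 75 bases from GENCODE transcripts. Tables and figures were made with Python 3.11.15, numpy 2.4.6, pandas 2.3.3 and matplotlib 3.10.9. The members, the pathway lists (assembly factors, complex V, carriers, ribosomal proteins, tricarboxylic acid cycle, beta-oxidation, coenzyme Q, regulators, mitochondrially encoded subunits) and the marker lists (muscle, adipocyte, sebocyte, basal and suprabasal keratinocyte, fibroblast, endothelial, immune, melanocyte, red blood cell, hair follicle) were chosen with earlier results of these data known. Members were named when they passed the test, were extreme in fold change or RPKM in their complex, belonged to complex II or a set of alternative subunits, or were Cyc1 or Cycs; Ndufv3, Ndufb11, Atp5s, Atp5a1, Atp5j, Ndufa11 and other members outside this rule were named after their values were seen.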

Additional observations from a re-analysis of the deposited data

Results flagged for a closer look

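In each group of 6 mice, the gap between the highest or the lowest mouse and its nearest neighbour was divided by the range of the group, for the levels and sums named in the text, and values above 0.625 were listed. This held for 12 of 108 groups. For independent, normally distributed values, chance gives about 1 in 20 groups, or 5.4 of 108. The levels were not on a log scale, some sums were strongly skewed, and the same mice recur across groups. The 5.4 is therefore only a rough guide. Among the members, the gap was 0.673 for Cox4i2 in Pparg-/-epi mouse 8, at 4.06 CPM with the other mice between 1.72 and 2.48 CPM. It was 0.663 for Cycs in WT mouse 5, at 50.9 CPM with the others between 26.8 and 34.9 CPM, and 0.732 for Sdha in the same mouse, at 155 CPM with the others between 107 and 120 CPM. For Sdhb it was 0.625 in Pparg-/-epi mouse 8, at 54.8 CPM with the others between 41.3 and 46.4 CPM.

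Among the summed marker lists, skeletal muscle gave 0.969 for WT mouse 5 (16402 CPM, others 30.3 to 537 CPM) and 0.676 for Pparg-/-epi mouse 8 (718 CPM, others 27.0 to 251 CPM). WT mouse 2 stood apart in 3 lists, with a gap of 0.736 as the lowest mouse for suprabasal keratinocytes (16928 CPM, others 37475 to 44857 CPM), 0.742 as the highest for immune cells (2825 CPM, others 1042 to 1501 CPM) and 0.761 as the highest for red blood cells (2.71 CPM, others 0.269 to 0.852 CPM). WT mouse 1 was the highest for fibroblasts with a gap of 0.711 (34762 CPM, others 1030 to 10783 CPM). Pparg-/-epi mouse 8 was also the highest of its group for melanocytes with a gap of 0.659 (196 CPM, others 22.5 to 81.7 CPM) and for the hair follicle with a gap of 0.731 (2623 CPM, others 101 to 781 CPM).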

How the results depend on the processing

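Under 23 alternatives no named member that had passed the test changed direction; genes of the other lists were compared between the tools only. Of 688 single-gene values, from the 30 members of the naming rule, 611 kept their direction and side of the threshold, 35 no longer passed, 3 passed that had not, and 39, from 13 genes that had not passed, took the other sign without passing. Among members outside that rule, Atp5s passed in 6 alternatives, Atp5j and Ndufv3 in 2 each, and Cox5b, Ndufaf4 and Ndufc1 in 1 each. The likelihood ratio test, total counts as scaling and the covariates sex and age changed no count of genes or members by more than 1.5 times. DESeq2 called 1 member lower in place of 0. Among genes with a mean of at least 50 counts, 1 member fell and 1 passed the rule that includes the fold change. With RIN as a covariate 8 members rose in place of 4; the cause was not tested. In the 7 females, 700 genes passed in place of 2236, 2 members rose and 1 passed the fold rule, from fewer mice. The 3 alternatives added after seeing the data gave the following. With WT mice outside prefix 29-226 only, from fewer mice, 407 genes passed, 1 member rose and 0 passed the fold rule, and the medians were 0.30 for the structural subunits, 0.24 for complex I, 0.13 for complex II, 0.38 for complex III, 0.41 for complex IV and 0.37 for complex V. Without WT mice 2 and 5 together, 2 members (2.27%) fell, against 9.53% of all genes. The blocks of mouse-name prefixes are described with the mouse names above.

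With each mouse left out in turn, from 1538 (without Pparg-/-epi mouse 9) to 3356 (without WT mouse 2) genes passed, 1 to 3 members rose, 0 to 2 fell, and 1 to 2 passed the fold rule. The median of the structural subunits ran from 0.00 to 0.12, that of complex I from -0.11 to 0.05, of complex II from -0.07 to 0.06, of complex III from 0.09 to 0.24, of complex IV from 0.07 to 0.25 and of complex V from 0.02 to 0.22. The study describes the WT mice as sibling controls, but the sample labels used here do not name litters, so no paired analysis was made. The mouse numbers 1 to 12 are each used once, and only the name prefix 29-222 held mice of both genotypes.

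Of the 88 members, 86 had over 0.5 CPM in every mouse; Cox4i2 and Cox6b2 did not, and their values rest on few counts. The median standard error over the structural subunits was 0.14 on the log2 scale. The values are mRNA levels in scrapings of mixed cell types and say nothing of protein, complex assembly or respiration. Mouse-name prefix, muscle content in WT mouse 5 and RNA quality differ between mice, and their part in the results was not tested beyond the alternatives above.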
